A study of Mus musculus with 6 samples.

Results

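Cytokines, chemokines and their receptors were examined as 1 set of 184 genes among the 22272 gene symbols counted in C2C12 cells, a line of mouse myoblasts. Genes entered the set by symbol: CC, CXC and CX3C chemokines and their receptors, interleukins and interleukin receptors, the tumour necrosis factor (TNF) ligand and receptor superfamilies, colony-stimulating factors and their receptors, and Tnf, Lif, Lifr, Osm, Osmr, Clcf1 and Il6st. The name patterns also take in Il4i1, an enzyme. The set holds 95 ligands, 80 signalling receptors or receptor chains, 6 decoy receptors, 2 soluble inhibitors and that enzyme.

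The study asks what ChREBP does in skeletal muscle and to the fat stored there. RNA-seq counts were compared here between 3 libraries of cells that carried green fluorescent protein (GFP), labelled wild type, and 3 libraries of cells that overexpressed ChREBP-beta, all undifferentiated and taken at day 0. ChREBP-beta is the short, constitutively active product of Mlxipl, a transcription factor that responds to sugars. The labels do not say how either sequence was delivered, or whether the replicates come from separate cultures. The p-values therefore reflect how far these libraries differ among themselves, a spread that may be technical.

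Cytokines are secreted or membrane-bound signals that act on nearby cells through surface receptors. Chemokines draw leukocytes along gradients and signal through G protein-coupled receptors. Many interleukin receptors pair a ligand-binding chain with a shared signalling chain and act through JAK kinases and STAT factors. IL-1 and TNF receptors act largely through NF-kB. In muscle, myoblasts themselves make several of these signals: LIF supports myoblast growth, CCL2 recruits monocytes after injury, and CXCL12 with its receptor CXCR4 guides precursor cells.

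Mlxipl, the gene overexpressed, followed the labels in all 6 libraries, with 11, 13 and 9 counts with GFP and 4083, 4038 and 3805 with ChREBP-beta; here and in what follows, values run in the order of replicates 1, 2 and 3. Totals per library ran from 17600238 to 19163834 counts. Of 8 myoblast markers, including Des and Itga7, the summed level was 397 ± 20.2 CPM (read counts scaled to a common library size with TMM factors; SD, n = 3) with GFP and 124 ± 4.37 CPM (SD, n = 3) with ChREBP-beta. Of 8 fibroblast markers, led by Col3a1 and Col1a1, it was 4220 ± 113 and 6260 ± 155 CPM (SD, n = 3 each). For each of these sums the exact permutation test gave p = 0.1, the smallest that 3 against 3 allows. Their part in the results below was not tested, and in these bulk samples fewer cells of a type cannot be told apart from less of an RNA per cell.

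As many members of the set were called higher as lower with ChREBP-beta. Of the 184, 73 had enough counts for the test, and edgeR's quasi-likelihood test (Benjamini-Hochberg adjusted p under 0.05) called 26 higher, 26 lower and 21 neither. That is 71.2% of those tested, beside 58.7% of all 12166 genes tested, of which 29.5% were called higher and 29.3% lower. Changes of at least 2-fold were called for 9 members upwards and 21 downwards, where the same rule took 4.06% and 7.42% of all genes. The GFP and ChREBP-beta libraries did not overlap for 56 of the 73 (76.7%), beside 63.2% of all genes. Groups without overlap, given for single genes below, were thus common in all genes. The median size of the log2 fold change, regardless of sign, was 0.79 for members and 0.23 for all genes, while the signed medians were -0.05 and -0.004.

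Both roles held called members in both directions. Among 33 tested ligands, 12 were called higher and 11 lower (69.7% called), with 8 and 9 at least 2-fold. Among 34 tested signalling receptors, 11 were called higher and 13 lower (70.6% called). Their changes of at least 2-fold were 0 upwards and 10 downwards. Over all genes 58.7% were called, with 4.06% at least 2-fold upwards and 7.42% downwards. At that upward share few rises would fall among 34 genes. Whether the split of the receptors differs from that of the ligands was not tested. Of 4 tested decoy receptors, which bind ligand without passing on the usual signal, 3 were higher and 1 lower, too few to set against 58.7%. In the plot of change against level, most members that moved by over 2 on the log2 scale lay under 10 CPM, and Lif, Tnfsf15, Ccl2, Ccl7 and Lifr lay above it.

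**Figure D1:**
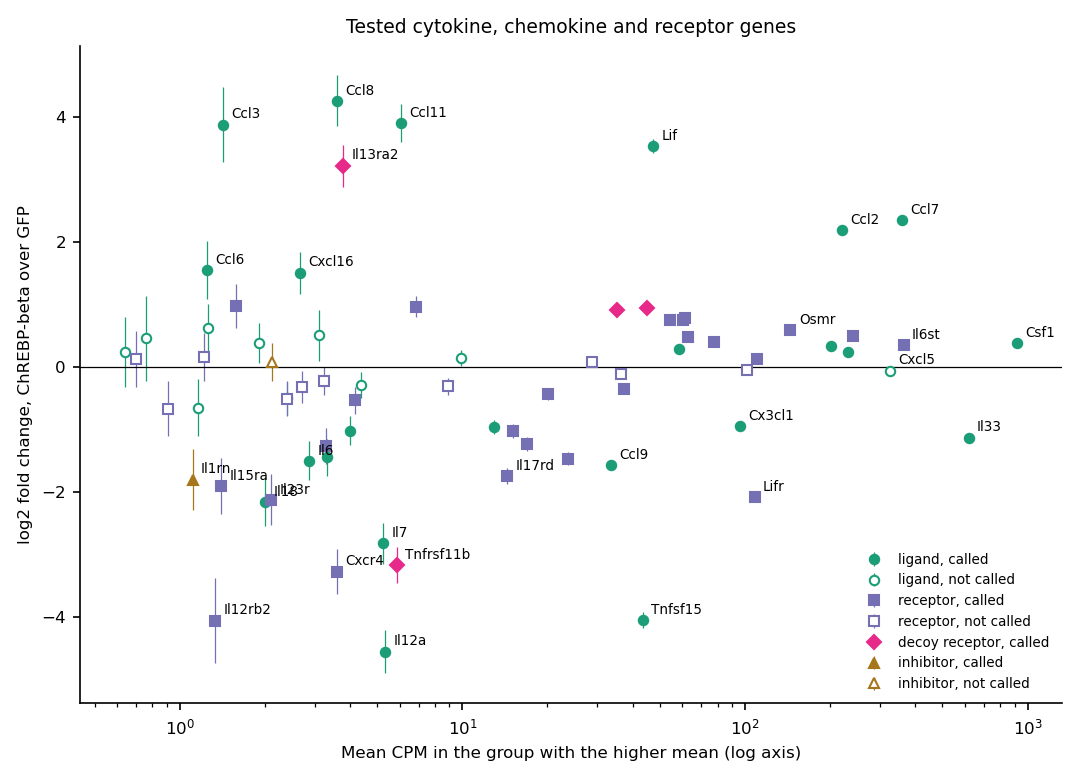
Change against level for the 73 tested members. The horizontal axis is the mean CPM of the group with the higher mean (log axis) and the vertical axis the log2 fold change of ChREBP-beta over GFP with its standard error; filled symbols were called at an adjusted p under 0.05 and colours give the role. Ccl8, Ccl11 and Ccl3 lie highest at a few CPM, Ccl2 and Ccl7 lie above 2 at over 200 CPM, and no signalling receptor lies above 1.

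The summed level of all members rose from 3770 ± 26.8 to 4310 ± 33.2 CPM (SD, n = 3 each; exact permutation test, p = 0.1, the smallest possible), with every ChREBP-beta library above every GFP library. Compared per kilobase of exon, so that genes of different length can be set side by side, the most abundant member with GFP was Il33 at 214 ± 4.18 CPM per kb, followed by the neutrophil chemokine Cxcl5 at 174.5 ± 3.96 and Csf1, the growth factor of macrophages, at 133 ± 1.005 (SD, n = 3 each). These 3 did not overlap in range. With ChREBP-beta the order changed: Ccl7 came first at 447 ± 12.9 CPM per kb and Ccl2 next at 194 ± 8.36, ahead of Csf1 at 174 ± 3.34 and Cxcl5 at 167.5 ± 7.05, of which the last pair lay within their spread of each other. Il33 stood seventh at 97.9 ± 2.80 CPM per kb.

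Promoter letters are shown here for members that moved in opposite directions while holding the same motif. RefSeq windows (GRCm38.p6) from 250 bases before to 50 after the start were found for 140 of the 184 members, not for Ccl2, Ccl7 or Ccl11. The NF-kB motif searched was GGG, any 2 bases, then TTTCC, on both strands. It occurred in 16 of the 140 members (11.4%) and in 1.89% of all 27025 symbols with a window. Among members with a window, 3 of 18 called higher held it (Csf1, Cxcl1 and Il4ra) and 6 of 20 called lower (Il6, Ccl9, Il1rn, Il16, Il23r and Il17rc). Those called lower had more windows per gene, and by window the motif was in 3 of 18 (16.7%) and 7 of 30 (23.3%). In Il1rn and Il16 only some of the annotated starts had a match. Of all tested genes with a window, 1.8% of those called higher and 2.54% of those called lower held it. The AP-1 motif TGANTCA was in 21.4% of members and 8.97% of all symbols, the STAT motif TTCNNNGAA in 15% and 9.55%, and the E-box CACGTG in 5% and 8.09%. The carbohydrate response element, the paired E-box that ChREBP binds (CACG, any base, G, any 5 bases, C, any base, CGTG), was in 14 symbols in all and in no member. At 0.0518% of all symbols, a match among 140 members was unlikely from the start, so the absence tells nothing of the set. The looser NF-kB form, which takes in the stricter (GGG, any 3 bases, TTCC), was in 16.4% and 6.31%. These are matches of letters in a short window, not binding sites.

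Stretches of 70 bases before the start are printed 5′ to 3′ on the gene's strand, with matches of the stricter NF-kB motif or of AP-1 in capitals. Cxcl1 (chr5:90891145-90891214, plus strand) has a pair of NF-kB matches and Csf1 (chr3:107760570-107760639, minus strand) has 1, and both genes were called higher. Il6 (chr5:30013034-30013103, plus strand) has 1 NF-kB match, Ccl9 (chr11:83578647-83578716, minus strand) an AP-1 match followed by an NF-kB match, and both were called lower. The window of Il6 also holds an AP-1 match outside the printed stretch, 249 to 243 bases before the start. Lif (chr11:4257328-4257397, plus strand), which rose most among ligands at over 10 CPM, has an AP-1 match and no NF-kB match in its window.
Cxcl1: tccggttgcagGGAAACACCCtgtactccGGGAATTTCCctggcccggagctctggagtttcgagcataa
Csf1: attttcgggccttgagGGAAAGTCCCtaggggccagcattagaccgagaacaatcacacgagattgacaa
Il6: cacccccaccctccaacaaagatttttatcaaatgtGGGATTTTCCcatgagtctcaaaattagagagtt
Ccl9: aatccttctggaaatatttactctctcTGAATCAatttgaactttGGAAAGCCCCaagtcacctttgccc
Lif: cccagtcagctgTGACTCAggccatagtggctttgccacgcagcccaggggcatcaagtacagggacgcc

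Of 9 tested CC chemokine ligands, 6 were called higher and 1 lower (77.8% called, beside 58.7% of all genes, 29.5% higher and 29.3% lower). Summed over all CC ligands, the level went from 158 ± 9.33 to 606 ± 7.66 CPM (SD, n = 3 each; exact permutation test, p = 0.1, the smallest possible). Ccl2, the main monocyte attractant (chromosome 11, 82035571 to 82037453 on the plus strand of GRCm38), gave 51.4, 44.8 and 49.3 CPM in GFP libraries and 222, 229 and 210.3 CPM in ChREBP-beta libraries. Ccl7, its neighbour with overlapping receptors, gave 76.7, 71.4 and 62.1 CPM and then 348, 358 and 369 CPM. The groups were far apart for both genes. The rise was 4.55-fold for Ccl2 (log2 fold change 2.19, SE 0.045, edgeR adjusted p = 1.54e-22) and 5.11-fold for Ccl7 (log2 fold change 2.35, SE 0.046, edgeR adjusted p = 6.10e-23). Leaving out any 1 library moved these log2 values only between 2.14 and 2.23 and between 2.28 and 2.42.

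Ccl11 and Ccl8 follow Ccl2 and Ccl7 on the same strand of chromosome 11, and both came up from a few counts. Ccl11, the eosinophil attractant eotaxin, had 11, 7 and 4 counts with GFP and 100, 114 and 116 with ChREBP-beta (log2 fold change 3.91, SE 0.300, edgeR adjusted p = 4.49e-11). Ccl8, another monocyte attractant, had 5, 1 and 4 counts and then 77, 62 and 57 (log2 fold change 4.26, SE 0.407, edgeR adjusted p = 2.48e-09). Every library with ChREBP-beta thus held over 5 times as many counts of either as any GFP library. Gaps of 8259, 10298 and 52230 bases separate the 4 genes in the annotation, and all 4 were called higher. Ccl12, another CC ligand of the same cluster, had 2 counts in all and was not tested.

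A further group of CC genes on chromosome 11 did not move together. Ccl9, a ligand of CCR1, fell from 33.6, 33.5 and 33.7 CPM to 11.9, 10.5 and 11.7 CPM (log2 fold change -1.57, SE 0.078, edgeR adjusted p = 1.18e-14). Ccl6, which lies 9246 bases from Ccl9, had 4, 8 and 11 counts with GFP and 17, 18 and 32 with ChREBP-beta (log2 fold change 1.55, SE 0.463, edgeR adjusted p = 0.00609). Ccl3, a leukocyte attractant, had 2, 0 and 3 counts and then 19, 37 and 22 (log2 fold change 3.88, SE 0.606, edgeR adjusted p = 6.32e-06; 4.57 without GFP replicate 3). Each of these 3 genes had groups that did not overlap, as did 63.2% of all genes, and Ccl9 had GFP on top. Ccl5 on the other side of Ccl9 stood at 2.40 ± 0.185 and 1.69 ± 0.208 CPM (SD, n = 3 each; edgeR adjusted p = 0.114), and Ccl25, on chromosome 8, at 1.46 ± 0.305 and 1.91 ± 0.506 CPM (SD, n = 3 each; edgeR adjusted p = 0.301).

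Macrophages also make these low-count chemokines, so their markers were summed per library. The 15 macrophage markers came to 6.59, 16.5 and 22.5 CPM for GFP and to 21.2, 18.7 and 28.7 CPM for ChREBP-beta (exact permutation test, p = 0.3), with Lyz2 as the largest contributor in each library. Adgre1, which encodes F4/80, had 1, 0 and 2 counts and then 1, 3 and 8, and all 15 markers had counts somewhere. Chil3, 1 of these markers, had 22 and 17 counts in ChREBP-beta replicates 1 and 2 but 136 in replicate 3. Over all 15 markers those libraries held 389, 351 and 496 counts, so the higher sum in replicate 3 came largely from Chil3. Replicate 3 also had the most Ccl6 and 8 of the 15 counts of Ccr2. Without that library Ccl6 was not called (log2 fold change 1.16, edgeR adjusted p = 0.0780). Ccl2, Ccl7, Ccl8, Ccl11 and Ccl3 were called in each of the 6 fits that left out a library. Macrophage markers were counted in all 6 libraries, so leaving out 1 cannot show which cells these chemokines came from. Their source was not tested.

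**Figure D2:**
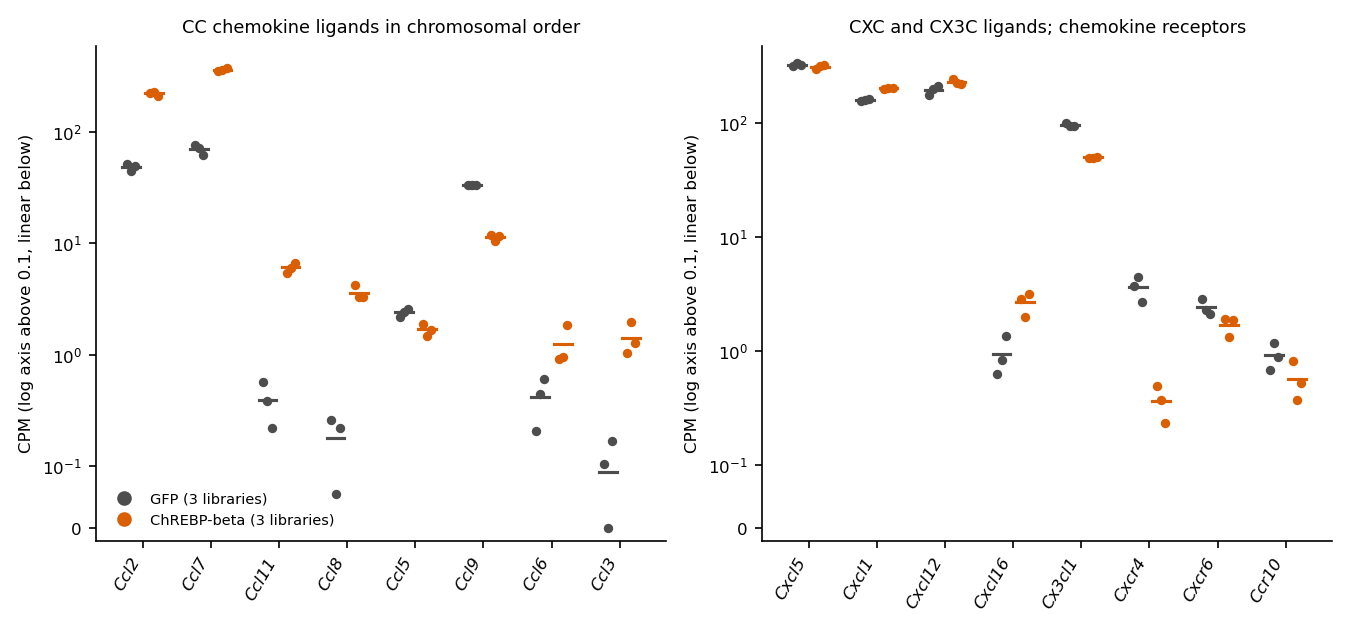
CPM per library (dots, log axis above 0.1 and linear below) and group mean (bars) for chemokine genes, GFP in grey and ChREBP-beta in orange, 3 libraries each. The left panel runs along chromosome 11: Ccl2, Ccl7, Ccl11 and Ccl8 are higher with ChREBP-beta in every library, Ccl9 is lower and Ccl6 and Ccl3 are higher; the right panel shows Cx3cl1 and Cxcr4 lower and Cxcl16 higher.

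CXC chemokines at high level changed little. Cxcl5 averaged 325 ± 7.38 and 312 ± 13.1 CPM (SD, n = 3 each), with overlapping groups and no call (log2 fold change -0.06, edgeR adjusted p = 0.115). Cxcl1, a neutrophil attractant in the same cluster on chromosome 5, rose 1.26-fold from 160 ± 2.72 to 202 ± 2.09 CPM (SD, n = 3 each; edgeR adjusted p = 1.30e-09). Cxcl12 rose 1.18-fold, from 175, 200 and 213.5 CPM to 244, 227 and 222 CPM (edgeR adjusted p = 1.90e-04), so that the highest GFP library lay just under the lowest ChREBP-beta library. Larger shifts came in the 2 chemokines that can be anchored in the membrane. Cx3cl1, or fractalkine, fell 1.93-fold from 96.1 ± 3.61 to 49.9 ± 0.522 CPM (SD, n = 3 each; edgeR adjusted p = 3.26e-15). Cxcl16 had 12, 15 and 24 counts with GFP and 51.9, 37 and 55.0 with ChREBP-beta, without overlap (log2 fold change 1.51, SE 0.333, edgeR adjusted p = 4.18e-04). Values that are not whole are taken, here and below, to include reads shared with another gene. The interferon-induced ligands Cxcl9 and Cxcl10 were not called.

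The 2 receptors of CXCL12 moved in opposite directions. Cxcr4, the signalling receptor, had 71, 80 and 48 counts with GFP and 9, 7 and 4 with ChREBP-beta, a 9.68-fold fall without overlap (log2 fold change -3.27, SE 0.358, edgeR adjusted p = 2.62e-08). Ackr3, which takes up and removes CXCL12 and lies outside the naming rule of the set, had 108, 86 and 91 counts and then 1092, 1029 and 1012 (log2 fold change 3.48, SE 0.082, edgeR adjusted p = 2.35e-21). Receptors for the CC ligands that rose were hardly counted: Ccr2 had 0, 3 and 1 counts and then 1, 2 and 8, and Ccr1 1, 2 and 2 and then 8, 4 and 6. Of 18 chemokine receptors in the set only Cxcr4, Cxcr6 and Ccr10 could be tested, and Cxcr6 (edgeR adjusted p = 0.122) and Ccr10 (edgeR adjusted p = 0.196) were not called.

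In the IL-6 family, which signals through the shared chain gp130, the ligand LIF and its own receptor chain moved apart. Lif, known for keeping precursor cells growing, gave 5.39, 3.76 and 3.01 CPM in GFP libraries and 46.8, 47.7 and 47.1 CPM in ChREBP-beta libraries. It rose 11.6-fold (log2 fold change 3.53, SE 0.109, edgeR adjusted p = 6.13e-19). Lifr, the receptor chain that binds LIF, was read at 106, 109 and 109 CPM and then at 27.1, 25.7 and 23.9 CPM, a 4.22-fold fall (log2 fold change -2.08, SE 0.051, edgeR adjusted p = 5.91e-21). In neither gene did any library of one group come near the other group.

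Osmr, the oncostatin M receptor chain, lies 215645 bases from Lifr on chromosome 15 and rose 1.5-fold, from 94.5, 98.2 and 97.1 CPM to 149, 144 and 142 CPM (edgeR adjusted p = 7.04e-13). Il6st, which encodes gp130 itself, rose 1.28-fold, from 285 ± 13.7 to 365 ± 4.49 CPM (SD, n = 3 each; edgeR adjusted p = 9.72e-10). Osm, the ligand of OSMR, had no count in any library. Il6 had 69, 52 and 38 counts with GFP and 17, 16 and 22 with ChREBP-beta, a 2.83-fold fall (edgeR adjusted p = 1.99e-04), and the IL-6 binding chain Il6ra stood at 36.3 ± 0.601 and 33.6 ± 1.19 CPM (SD, n = 3 each; edgeR adjusted p = 0.113). Clcf1, a ligand of the CNTF receptor, rose 1.23-fold to 58.6 ± 3.69 CPM (SD, n = 3; edgeR adjusted p = 9.96e-05), with reads shared with another gene in 1 library. Il11ra1, the IL-11 receptor, fell 2.35-fold from 16.98 ± 2.26 to 7.23 ± 0.550 CPM (SD, n = 3 each; edgeR adjusted p = 1.81e-09). The mouse genome has near-identical copies of it that could take part of its reads. Of these, Il11ra2 had no count in any library, and Il11ra1 held whole counts only. Il11 and Il27ra were not called.

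**Figure D3:**
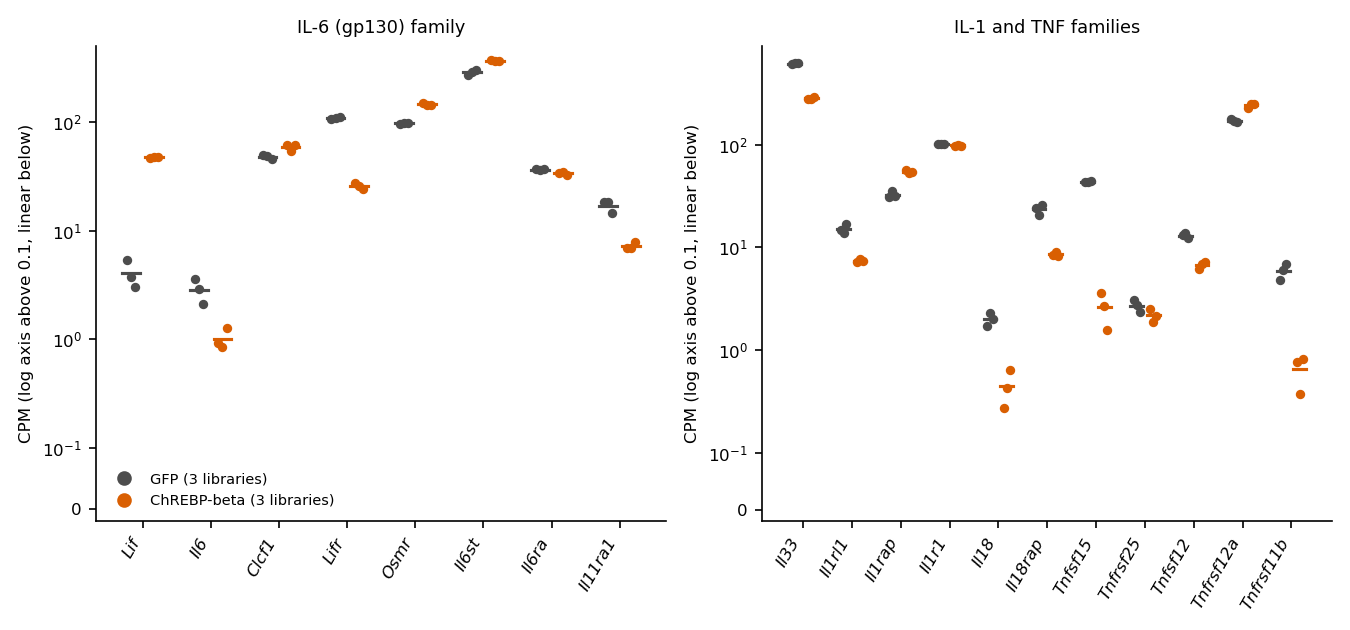
CPM per library (dots, log axis above 0.1 and linear below) and group mean (bars) for members of the IL-6 family (left) and of the IL-1 and TNF families (right), GFP in grey and ChREBP-beta in orange, 3 libraries each. Lif is higher and Lifr, Il33, Il1rl1, Il18, Il18rap, Tnfsf15 and Tnfrsf11b are lower with ChREBP-beta, with no overlap between groups in any of these 8 genes. Groups did not overlap for 63.2% of all genes tested.

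Of 8 tested genes of the IL-1 family 5 were called lower and 1 higher (75% called, beside 58.7% of all genes). Il33, a nuclear alarm signal and the member with the most reads per length in GFP cells, was read at 605, 621 and 629 CPM and fell to 278, 278 and 292 CPM (2.19-fold, SE 0.029 on the log2 scale, edgeR adjusted p = 1.43e-20). Its receptor Il1rl1, or ST2, fell with it, from 14.7, 13.8 and 16.8 CPM to 7.24, 7.71 and 7.29 CPM (2.04-fold, edgeR adjusted p = 2.07e-08). Both genes had groups well apart. Il1rap, the accessory chain that ST2 shares with the IL-1 receptor, rose 1.68-fold to 54.5 ± 1.82 CPM (SD, n = 3; edgeR adjusted p = 9.45e-11), and Il1r1, the IL-1 receptor, stood at 102 ± 0.579 and 98.5 ± 1.38 CPM (SD, n = 3 each; edgeR adjusted p = 0.281).

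Il18 and the accessory chain of its receptor were lower too. Il18 had 33, 41 and 36 counts with GFP and 5, 8 and 11 with ChREBP-beta (4.47-fold lower, edgeR adjusted p = 3.88e-05). Il18rap, the accessory chain of its receptor and a neighbour of Il1rl1 on chromosome 1, fell 2.76-fold from 23.6 ± 2.49 to 8.53 ± 0.355 CPM (SD, n = 3 each; edgeR adjusted p = 4.20e-12). Il18r1, the binding chain, had 7, 26 and 19 counts and then 4, 4 and 2, too few for the test. Of the soluble inhibitors, Il1rn, which blocks the IL-1 receptor, fell 3.48-fold (18, 21 and 22 counts, then 3, 4 and 10; edgeR adjusted p = 0.00266; 5.71-fold without ChREBP-beta replicate 3), and Il18bp, which traps IL-18, was not called (edgeR adjusted p = 0.832). Il1b had 5 counts over all libraries and Il1a 13.

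Of 4 tested genes of the IL-12 family, all at a few CPM, 3 were called lower and 1 higher, where 58.7% of all genes were called. Il12a, the p35 subunit, had 113, 85 and 96 counts with GFP and 7, 3 and 2 with ChREBP-beta, 23.5-fold lower (log2 fold change -4.55, SE 0.349, edgeR adjusted p = 4.44e-11) and 36.5-fold lower without ChREBP-beta replicate 1. Il12b, the p40 subunit it pairs with in IL-12, had 2 counts in all. Il12rb2, the signalling chain of the IL-12 receptor, had 17.3, 24.6 and 30.6 counts with GFP and 4.04, 0 and 0 with ChREBP-beta (log2 fold change -4.06, SE 0.684, edgeR adjusted p = 1.74e-05), with reads shared with another gene in 4 libraries. Without ChREBP-beta replicate 1 that group had no count of Il12rb2, and the fitted log2 fold change went to -7.61 (edgeR adjusted p = 2.47e-05), a value that is no bound. Its neighbour on chromosome 6, the IL-23 receptor gene Il23r, had 41, 31 and 44 counts and then 15, 4 and 7 (4.36-fold lower, edgeR adjusted p = 8.58e-05; 6.72-fold without ChREBP-beta replicate 1). Il12rb1, the chain common to both receptors, went the other way, from 76, 56 and 62 to 116, 135 and 123 counts (1.95-fold higher, edgeR adjusted p = 2.53e-05). None of these 4 genes had overlapping groups, which also holds for 63.2% of all genes.

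Receptors for IL-4 and IL-13 rose while their ligands were hardly counted. Il4ra, the signalling chain, rose 1.69-fold to 60.1 ± 2.65 CPM (SD, n = 3; edgeR adjusted p = 6.57e-11) and Il13ra1, its partner, 1.40-fold to 62.7 ± 2.08 CPM (SD, n = 3; edgeR adjusted p = 1.60e-08). Il13ra2, a decoy that binds IL-13 tightly, had 8, 10 and 4 counts with GFP and 68, 76 and 62 with ChREBP-beta, a 9.33-fold rise without overlap (log2 fold change 3.22, SE 0.335, edgeR adjusted p = 1.11e-08). Il4 had no count and Il13 had 2. Among other interleukins, Il7, a lymphocyte survival factor, fell 7.06-fold (124, 66 and 100 counts, then 14, 6 and 20; edgeR adjusted p = 6.52e-08), Il15ra 3.75-fold (23, 24 and 30 counts, then 3, 6 and 11; edgeR adjusted p = 8.27e-04; 5.65-fold without ChREBP-beta replicate 3) and Il16 2.72-fold (edgeR adjusted p = 1.84e-04). Il15, which muscle is known to make, had 5, 8 and 13 counts and then 5, 2 and 7, too few for the test. Il2rg, the common gamma chain, was not called, and the IL-10 receptor chain Il10rb fell 1.35-fold to 14.9 ± 1.10 CPM (SD, n = 3; edgeR adjusted p = 1.43e-04).

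IL-17 receptor chains did not move together. Il17ra, common to the family, rose 1.73-fold to 61.4 ± 1.35 CPM (SD, n = 3; edgeR adjusted p = 4.49e-11). Il17rc, its partner for IL-17A, fell 1.27-fold to 29.3 ± 0.880 CPM (SD, n = 3; edgeR adjusted p = 8.22e-05). Il17rd, also known as SEF, an inhibitor of growth factor signalling, fell 3.37-fold, from 15.6, 13.8 and 13.8 CPM to 4.84, 4.199 and 3.76 CPM (edgeR adjusted p = 1.88e-11). Groups were separate for all 3, as for 63.2% of all genes. No library had a count of the ligands Il17a, Il17b, Il17c, Il17f or Il25.

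In the TNF superfamily the largest change was in a ligand. Tnfsf15, or TL1A, was read at 43.4, 43.4 and 44.1 CPM for GFP and fell to 3.59, 2.66 and 1.56 CPM, 16.6-fold lower (log2 fold change -4.05, SE 0.127, edgeR adjusted p = 7.30e-19). Tnfrsf25, its receptor, stood at 2.70 ± 0.348 and 2.17 ± 0.322 CPM (SD, n = 3 each; edgeR adjusted p = 0.290), with overlapping groups. Tnfrsf11b, the decoy osteoprotegerin that traps the bone factor RANKL, had 91, 108 and 123 counts and then 14, 7 and 14 (9.02-fold lower, edgeR adjusted p = 9.25e-10). Tnfsf11, which encodes RANKL, had 2 counts in all.

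TWEAK and its receptor moved in opposite directions. Tnfrsf12a, or FN14, the TWEAK receptor known from injured muscle, had the most reads per length of the receptors in the set and rose 1.40-fold from 172 ± 5.47 to 241 ± 12.5 CPM (SD, n = 3 each; edgeR adjusted p = 2.69e-11). Tnfsf12, which encodes TWEAK, fell 1.94-fold from 12.98 ± 0.737 to 6.69 ± 0.530 CPM (SD, n = 3 each; edgeR adjusted p = 1.32e-07). Tnfsf12, Tnfsf13 and the read-through gene Tnfsfm13 overlap, and all 6 libraries hold reads shared among genes at each of them, so the value of Tnfsf12 is uncertain; the other pair were not called. The TNF receptors rose slightly, Tnfrsf1a 1.10-fold to 111 ± 1.75 CPM (SD, n = 3; edgeR adjusted p = 0.00312) and Tnfrsf1b 1.31-fold to 77.7 ± 0.897 CPM (SD, n = 3; edgeR adjusted p = 2.83e-08). Tnf itself had 2 counts, both in ChREBP-beta replicate 1.

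The decoys of the death ligand TRAIL, Tnfrsf22 and Tnfrsf23, neighbours on chromosome 7, rose 1.88-fold and 1.93-fold to 35.4 ± 0.0811 and 44.8 ± 1.24 CPM (SD, n = 3 each; edgeR adjusted p = 2.29e-11 and 1.65e-12). Reads shared between genes occur at both in all 6 libraries, so the split between them is uncertain. Tnfrsf10b, the TRAIL death receptor, was not called at 27.1 ± 0.444 and 28.7 ± 2.21 CPM (SD, n = 3 each; edgeR adjusted p = 0.316), nor was Tnfsf9. Tnfrsf13c and Tnfrsf21 were called near the threshold (edgeR adjusted p = 0.0220 and 0.0414). Each lost its call in several fits that left out a library: Tnfrsf13c without GFP replicate 1, GFP replicate 3 or ChREBP-beta replicate 2, and Tnfrsf21 without GFP replicate 2, GFP replicate 3, ChREBP-beta replicate 1 or ChREBP-beta replicate 3.

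Ligands of the macrophage growth factor receptor moved apart. Csf1, the member with the most counts, rose 1.31-fold, from 708, 708 and 698 CPM to 902, 937 and 921 CPM (edgeR adjusted p = 4.24e-12). Il34, the alternative ligand, fell 2.03-fold from 3.996 ± 0.360 to 1.97 ± 0.333 CPM (SD, n = 3 each; edgeR adjusted p = 6.27e-04). Their receptor Csf1r, a macrophage gene, stood at 0.638 ± 0.145 and 0.701 ± 0.254 CPM (SD, n = 3 each; edgeR adjusted p = 0.813). Csf2rb, the common beta chain of the IL-3, IL-5 and GM-CSF receptors, fell 2.41-fold (edgeR adjusted p = 5.47e-04). It shares reads with its near-identical copy Csf2rb2 in some libraries and is uncertain, and Il3ra was not called (edgeR adjusted p = 0.0542).

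Among 111 members with too few counts for the test, 37 had none in any library, 28 had 1 to 4 in all and 46 had at least 5, with 62 for Il18r1 as the highest sum. The 46 included the chemokine ligands Ccl17, Ccl20, Ccl21a, Ccl22, Cxcl2, Cxcl3, Cxcl14 and Cxcl17 and the receptors Ccr1, Ccr2, Ccr4, Ccr7, Ccr9, Cx3cr1 and Cxcr2. Interleukin genes in that range were Il1a, Il1b, Il1f9, Il5, Il15, Il17d, Il23a, Il4i1, Il1r2, Il1rl2, Il2ra, Il2rb, Il7r, Il10ra, Il17re, Il18r1, Il20rb and Il21r. Others were Tnfsf10, Tnfsf13b, Tnfsf18, Tnfrsf4, Tnfrsf9, Tnfrsf11a, Tnfrsf13b, Tnfrsf14, Tnfrsf18, Tnfrsf19, Csf2ra and Csf2rb2. Those with the next highest sums after Il18r1 were Csf2rb2 (8, 6 and 19.1 counts, then 12, 2 and 6.2), Tnfrsf18 (14, 8 and 15 counts, then 4, 5 and 2) and Tnfrsf14 (13, 5 and 8 counts, then 9, 5 and 2). No difference between the groups was read from these low counts, though some are set beside markers of single libraries elsewhere.

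Genes downstream of these receptors were called in both directions. Of 25 tested JAK and STAT pathway genes 4 were called higher and 13 lower (68% called, beside 58.7% of all genes), with a median log2 fold change of -0.14 beside -0.004 for all genes. Jak2, the kinase of many cytokine receptors, fell from 234 ± 7.42 to 116 ± 1.85 CPM (SD, n = 3 each; log2 fold change -1.01, edgeR adjusted p = 3.32e-18), the feedback inhibitor Socs2 fell by 1.999 on the log2 scale (edgeR adjusted p = 3.53e-13) and Stat3, the main factor of the IL-6 family, rose by 0.50 (edgeR adjusted p = 8.02e-11). Socs3, a feedback gene of gp130 signalling, was not called (log2 fold change 0.13, edgeR adjusted p = 0.0739). Of 35 NF-kB pathway genes 13 were higher and 9 lower, with a median of -0.01; the share called, 62.9%, is near that of all genes. Those with the smallest p fell: Nfkb2 (log2 fold change -0.76), the inhibitor Nfkbie (-1.12) and the inhibitor Nfkbia (-0.49; edgeR adjusted p = 9.67e-12, 3.71e-08 and 5.20e-08).

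Of 25 tested genes known to respond to NF-kB or STAT3, 15 were called higher and 6 lower (84% called, beside 58.7% of all genes), with a median log2 fold change of 0.38. Ptgs2, the inducible cyclooxygenase, had 1946, 1836 and 1681 counts with GFP and 11413, 12181 and 11398 with ChREBP-beta (log2 fold change 2.70, SE 0.035, edgeR adjusted p = 2.68e-26). Tnfaip2 rose by 1.61 (edgeR adjusted p = 3.44e-22) and the adhesion molecule Vcam1 fell by 0.75 (edgeR adjusted p = 1.95e-14) on the log2 scale. Of 32 tested cytokine and receptor genes whose names fall outside the rule, 5 were higher and 15 lower, with a median of -0.20; the share called, 62.5%, is near that of all genes. Besides Ackr3, the smallest p-values there were those of Kitl, the ligand of KIT (log2 fold change -0.54, edgeR adjusted p = 1.19e-11), and the interferon gamma receptor chain Ifngr2 (log2 fold change -0.56, edgeR adjusted p = 1.15e-09).

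Traces of lung RNA were present in 5 of the 6 libraries and nearly missing in GFP replicate 1. The surfactant gene Sftpc had 5 counts there and 489 and 466 in the other GFP libraries, against 481, 470 and 349 with ChREBP-beta, and the airway gene Scgb1a1 had 3, 1734 and 1032 counts and then 958, 1002 and 642. Summed over 15 lung markers the level was 34.2, 190.0 and 146 CPM for GFP and 124, 122 and 97.4 CPM for ChREBP-beta (exact permutation test, p = 0.8); in GFP replicate 1 most of that sum is Rtkn2 and Hopx, at 295 and 288 counts. Cxcl15, or lungkine, a chemokine of lung epithelium, had 5, 59 and 55 counts and then 63.0, 56 and 50, so it stood low in the same 1 library. It was not called (log2 fold change 0.51, edgeR adjusted p = 0.291), and without GFP replicate 1 the log2 fold change was -0.03 (edgeR adjusted p = 0.930).

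Traces of liver RNA were in 4 libraries, GFP replicate 3 and all 3 with ChREBP-beta. The 9 liver markers summed to 0.576, 1.11 and 40.3 CPM for GFP and 30.4, 24.7 and 23.8 CPM for ChREBP-beta (exact permutation test, p = 0.4), and Cxcl9, which was not called, had 0, 3 and 27 counts and then 12, 10 and 19. Without GFP replicate 3 Cxcl9 was called higher (log2 fold change 3.13, edgeR adjusted p = 0.00242). The 10 lymphocyte markers stood highest in GFP replicate 1 at 4.76 CPM, against 0.387 to 1.27 CPM in the other 5, led by Cd8a with 37, 0 and 3 counts and then 1, 1 and 0. In the same library lay 20.9 of the 23.9 counts of Ccl21a, a chemokine of lymphoid tissue, and 8 of the 12 counts of the thymic receptor Ccr9. Endothelial markers summed to between 1.99 and 11.1 CPM and neutrophil markers to between 3.98 and 7.25 CPM per library, and the red cell markers to between 3.35 and 11 CPM. For each of these lists, and for the macrophage markers (6.59 CPM), the lowest sum was that of GFP replicate 1, where lung markers were lowest too. Of the 30 members called at 2-fold or more, 29 kept their call in each of the 6 fits without a library, GFP replicate 1 included. Ccl6 was the exception. A trace held by all 3 libraries of a group, as of liver RNA with ChREBP-beta, stays in each of these fits. The part of such traces in the calls was not tested.

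**Figure D4:**
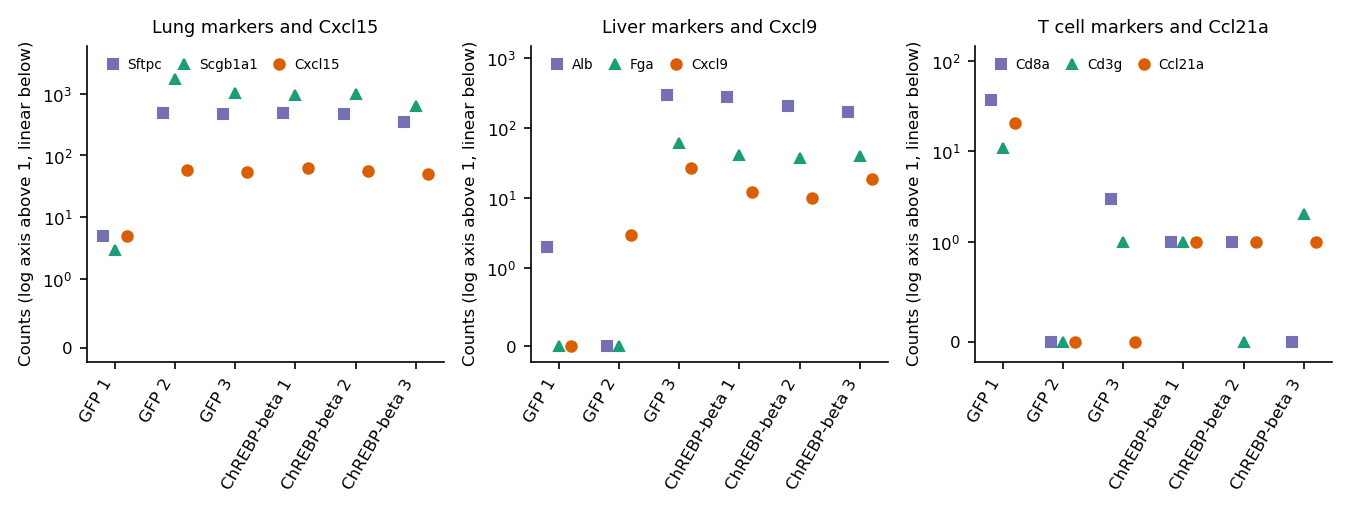
Counts per library (log axis above 1, linear below) of markers of lung, liver and T cells, each beside a chemokine low or high in the same GFP libraries. Within ChREBP-beta, Cxcl9 (12, 10 and 19 counts) did not follow the order of the summed liver markers (30.4, 24.7 and 23.8 CPM). Cxcl15 is low in GFP replicate 1 together with Sftpc and Scgb1a1, Cxcl9 is low in GFP replicates 1 and 2 together with Alb and Fga, and Ccl21a is high in GFP replicate 1 together with Cd8a and Cd3g.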

How the data were processed

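The 6 libraries were grouped by their titles. The authors deposited 1 table of estimated counts, not normalized, with a row per gene symbol. Of its values 7.74% are not whole, and 18 of the 184 members hold such values. They were taken as reads divided between genes, which could not be checked without the counting tool. Per the submitters' processing notes reads were handled with TopHat2 2.0.0, Bowtie2 2.0.0.5 and fastp. Those notes name the chicken build GRCg6a, although the table lists mouse symbols. The mouse build, annotation, counting tool and strand setting are not given in sources used here. Rows of the 24 repeated symbols were summed and the sums rounded.

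The test was that of edgeR 4.0.16 under R 4.3.3. Its filterByExpr (minimum count 10, minimum total 15) kept 12166 genes, sizes were scaled by TMM, and glmQLFTest compared the groups, two-sided, with Benjamini-Hochberg adjustment over all genes tested and calls under 0.05. Each standard error is the log2 value over the square root of its F statistic. The procedure was tested on simulated counts. Replicates differed by more than sampling noise (chi-square per degree of freedom 2.15 to 3.93) and were kept apart. Locations and exon lengths are from GENCODE M21 (GRCm38) by symbol (183 members matched), promoters from RefSeq (GRCm38.p6).

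The members and gene lists were chosen with earlier results of these data known. Named are members called at 2-fold or more, tested members with a mean CPM of at least 10, those spelled out in the rule, untested members with at least 5 counts, Il6, Il15, Il1b, Ccl2, Cxcl12 and Cxcl15 whatever their counts, up to 3 genes of each pathway list by smallest adjusted p and up to 2 markers of each list by level. A gene that fits this rule is not reported here. Other genes were named after their values were seen. As alternatives, scaling was changed to RLE, upper quartile or library size, the filter was dropped or set at a mean CPM of 1, the tool was changed to limma-voom 3.58.1 or DESeq2 1.42.0, replicate number was added as a block, members with split reads were omitted, and each library was left out.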

Additional observations from a re-analysis of the deposited data

How the results depend on the processing

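No named member changed direction under any alternative while called, and the counts of members called higher (26) and lower (26) stayed within 1.5 times: 22 to 28 higher and 23 to 31 lower over other scalings, filters, tools and the set without split reads, 25 to 26 and 25 to 28 with a library left out. All genes called ran from 6442 to 7383, against 7145. With the replicate block 6902 genes, 26 members higher and 25 lower were called. Numbers did not pair the libraries (correlations of same-numbered deviations -0.0383, -0.0267 and -0.119). Tnfrsf21 lost its call under DESeq2 and under the block, where no other member did. Gained calls were Cxcl5 and Il6ra under upper-quartile and library-size scaling, Il3ra in both, without a filter and without GFP replicate 1 or ChREBP-beta replicate 3, Tnfsf13 without GFP replicate 2, Il1r1 under library size alone, and Cxcl15 and Cxcl9 by limma-voom; other scalings moved the median of all genes by at most 0.0463 (log2). The cause of these was not tested. Members with under 1 CPM rest on about 18 counts per library or fewer, so small changes in them were not detectable at this depth.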
